A study of Mus musculus with 9 samples.

Results

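The 10 genes of an NRF2 antioxidant programme listed here were followed across mouse bone marrow-derived macrophages (BMDMs) cultured without RANKL, with RANKL, or with RANKL together with vitamins D and K. The list was given by gene names, with earlier results of these data known, and no measured value enters its rule: Nfe2l2, Keap1, Hmox1, Gclm, Gclc, Txnrd1, Srxn1, Gsr, Gpx4 and Prdx1. All 10 were among the 28379 genes measured by RNA sequencing, and all 10 passed the filter on low counts that left 17002 genes to test. With RANKL 6 of the 10 were called lower than in PBS, against 1.26% of all genes tested, a count that ran from 2, without PBS replicate 3, to 8 when 1 library was left out. With the vitamins 8 of the 10 were called higher than with RANKL alone, against 16.4% of all genes tested. Keap1 and Gpx4 passed the test in neither of these comparisons.

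The cells were primary macrophages of C57BL/6J mice aged 10 weeks, grown in every group with macrophage colony-stimulating factor (M-CSF, 20 ng/ml), and the study asked how the vitamins act on osteoclast formation. Cells of the PBS group had no RANKL, those of the RANKL group had RANKL at 100 ng/ml, and those of the last group had the same RANKL together with vitamin D at 1000 nM and 20 μM of vitamin K. The vitamin K dose is that of the sample labels, and the study's methods state a different one. Treatment lasted 48 h, and each group had 3 libraries. RANKL is the ligand that drives macrophages towards osteoclasts, the cells that resorb bone. There was no group with either vitamin alone or with the vitamins but without RANKL, and how many animals or cultures each library represents is not given in the sources used here, so p-values measure only the spread between these libraries, which may be technical. In these bulk samples a lower level per cell and fewer cells of a type cannot be told apart.

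Each library held between 65915112 and 68229647 counts. Vitamin replicate 2 stood apart from the other vitamin libraries. It was the nearest of the 3 to the RANKL mean for 4485 of the 5725 genes called between those groups, which is 78.3%. The same held for 7 of the 10 NRF2 genes, so values are given with and without it where it bears on a call. Replicate 2 also differed most from its group in PBS and RANKL, but by less. The root mean square difference in log2 counts scaled to library size was 0.839 and 0.882 for its PBS pairs. It was 0.861 and 0.909 in RANKL, and 1.26 and 1.09 with the vitamins. The pairs without replicate 2 differed by 0.797, 0.753 and 0.892. The summed FPKM of 7 macrophage markers, most of it Lyz2, was 26283 to 30490 in PBS, 16600 to 24185 in RANKL and 4485 to 11507 with the vitamins; 5 of the 7 were lower and Cd68 was higher with the vitamins than with RANKL alone. FPKM is the number of read fragments per kilobase of transcript, scaled to library size. The 9 osteoclast markers summed to 22.9 to 30.4 in PBS, 487 to 1018 in RANKL and 58.2 to 93.1 with the vitamins. The 8 neutrophil markers summed to 9.27 to 95.7 in PBS, 9.32 to 110.8 in RANKL and 0.493 to 1.501 with the vitamins. The listed erythroid, B cell and stromal markers that were in the table summed to at most 0.498, 0.134 and 0.287 in any library. The 3 T cell markers looked up, Cd3e, Cd3g and Cd8a, were not among the genes measured. The part of these differences in cell markers in the results that follow was not tested.

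NRF2, the product of Nfe2l2, is a transcription factor that is kept low in resting cells because KEAP1 hands it to a ubiquitin ligase for degradation. When electrophiles or oxidants modify KEAP1, NRF2 accumulates, pairs with a small MAF protein and binds antioxidant response elements near genes for glutathione synthesis, thioredoxin reduction, heme breakdown and NADPH supply. Because NRF2 is controlled largely through its stability, its transcript does not report its activity. In the osteoclast lineage, RANKL signalling uses reactive oxygen species, and these enzymes remove them.

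The promoter stretches below are shown because they hold letters of the element through which NRF2 is known to act, beside genes whose transcripts moved in the comparisons. RefSeq promoter windows of GRCm38.p6, from 250 bases before to 50 bases after a start, were matched for 7 of the 10 genes, with 12 windows in all, and there were none for Hmox1, Gclc and Gsr. The 3 motifs were searched on both strands: the element's core TGACNNNGC, the narrower TGANTCAGC of NRF2-type factors paired with small MAF proteins, and the AP-1 motif TGANTCA, which every TGANTCAGC contains. Capitals mark the matches, and each run is written on the strand of its gene.
Srxn1, chr2:152105414-152105513, plus strand: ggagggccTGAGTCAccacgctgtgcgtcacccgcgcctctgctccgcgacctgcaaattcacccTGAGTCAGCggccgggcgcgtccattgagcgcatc
Prdx1, chr4:116685439-116685498, plus strand: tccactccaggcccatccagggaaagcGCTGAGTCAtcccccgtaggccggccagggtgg
Gclm, chr3:122245397-122245456, plus strand: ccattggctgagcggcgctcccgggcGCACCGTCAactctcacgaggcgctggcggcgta
Txnrd1, chr10:82859086-82859145, plus strand: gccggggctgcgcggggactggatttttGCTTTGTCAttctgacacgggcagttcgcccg
Nfe2l2, chr2:75704854-75704913, minus strand: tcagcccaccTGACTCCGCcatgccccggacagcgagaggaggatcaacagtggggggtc

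Srxn1 and Prdx1 were the 2 genes of the list with TGANTCAGC, starting 45 and 133 bases before their starts. In Prdx1 the match reads on the opposite strand, and the same letters are its match to the core. Only 1.37% of the 27025 genes with a window hold that motif. The core was found in 5 of the 7 genes, namely Nfe2l2, Gclm, Txnrd1, Srxn1 and Prdx1, against 14.0% of all genes with a window. In Srxn1 it lies after the start and outside the stretch shown. In Txnrd1 it was in 1 of 3 windows, and not in the window at the deposited start of the gene. The core matches of Gclm, Txnrd1, Srxn1 and Prdx1 read on the opposite strand. The AP-1 motif was found in Srxn1 and Prdx1, against 8.97% of all genes. None of the 3 was found in the windows of Keap1 and Gpx4. A match is a run of letters in a window and not evidence that a factor was bound in these cells.

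The transcription factor itself moved less evenly than the enzymes. Nfe2l2 (chr2:75675513-75704641, minus strand) had FPKM values of 84.4, 80.6 and 89.1 in PBS, 61.1, 56.0 and 67.7 in RANKL, and 117.5, 70.7 and 106.6 with the vitamins. The 3 RANKL libraries were the lowest of the 9, and vitamin replicate 2 lay below every PBS library while the other two lay above. RANKL against PBS gave a log2 fold change of -0.58 (SE 0.224, adjusted p = 0.205), which did not pass the threshold of 0.05. The vitamin libraries exceeded those with RANKL alone by 0.84 on the log2 scale (SE 0.225, adjusted p = 0.0199), and by 1.08 without vitamin replicate 2. That call was lost when RANKL replicate 1, RANKL replicate 2, vitamin replicate 1 or vitamin replicate 3 was left out, with adjusted p up to 0.0643, and when only the RANKL and vitamin libraries were fitted, at an adjusted p of 0.0516. All adjusted p-values come from the quasi-likelihood test of edgeR, by the Benjamini-Hochberg method over the genes tested in each fit. These were 17002 in the fit of all 9 libraries. Fits without a library or group were filtered anew, which gave 17806 genes without vitamin replicate 2.

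Keap1 (chr9:21229730-21239361, minus strand), the adaptor that marks NRF2 for degradation, was not among the genes that rose with the vitamins. Its FPKM was 13.6, 13.9 and 13.2 in PBS, 11.3, 10.9 and 12.7 in RANKL, and 7.76, 11.9 and 8.56 with the vitamins. Vitamin replicates 1 and 3 were the lowest of the 9 libraries, and vitamin replicate 2 lay within the RANKL range. Neither RANKL against PBS (-0.35, SE 0.134, adjusted p = 0.208) nor the vitamins against RANKL (-0.17, 95% interval -0.48 to 0.13, adjusted p = 0.346) passed the test. Against PBS, however, Keap1 was lower with the vitamins, by a log2 fold change of -0.52 (SE 0.134, adjusted p = 0.0141). This call was lost when any PBS library, vitamin replicate 1 or vitamin replicate 3 was left out, and was -0.64 without vitamin replicate 2.

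**Figure D1:**
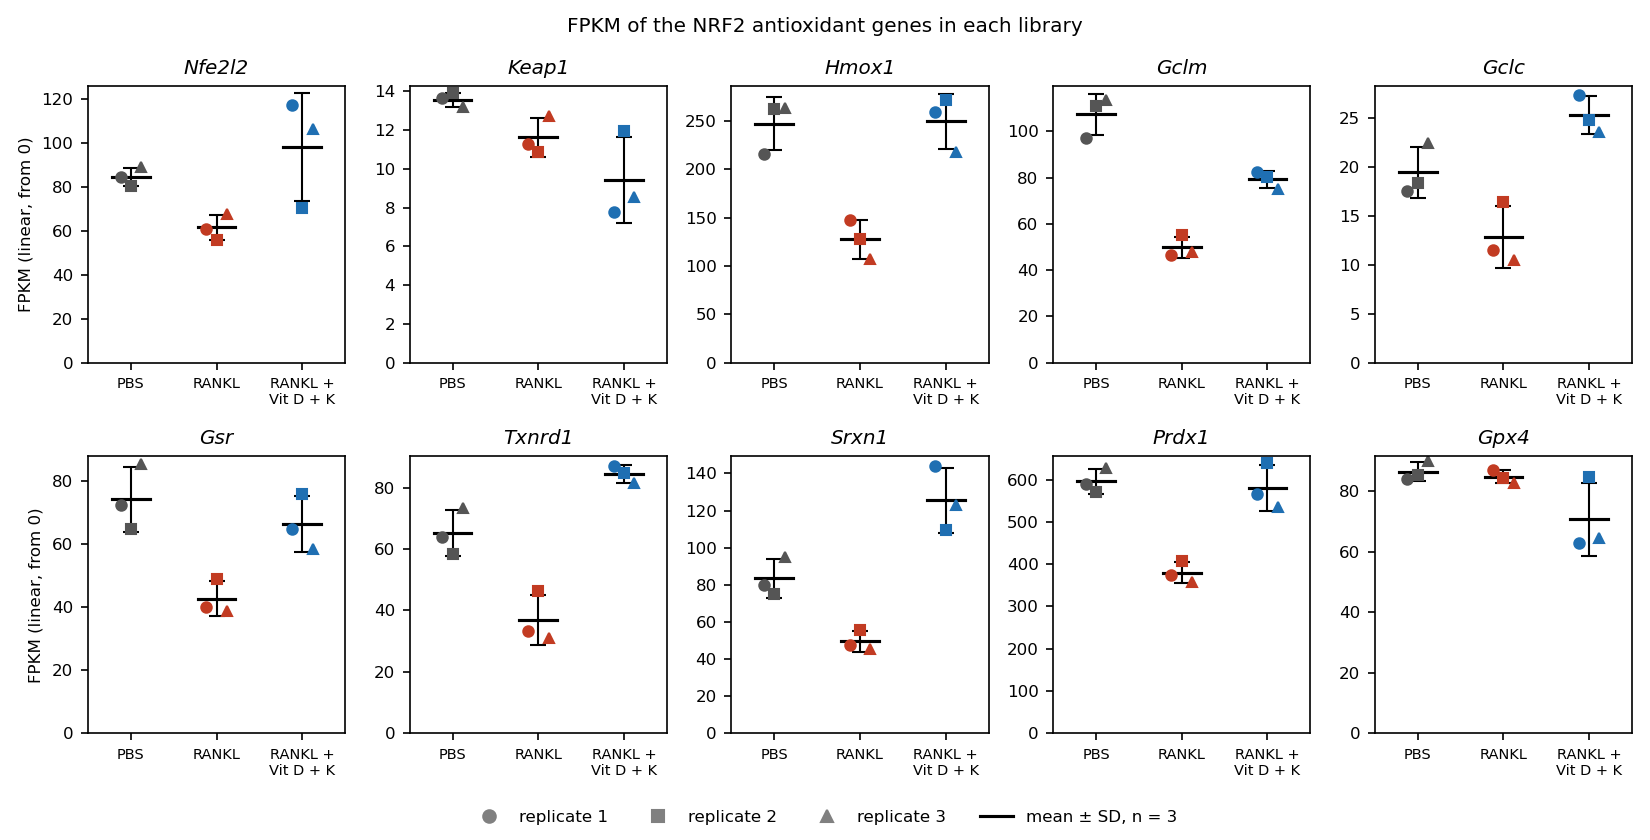
FPKM of each of the 10 genes in each of the 9 libraries, 1 panel per gene with its own vertical axis; points are libraries, bars the mean of 3 and error bars the SD. Hmox1, Gclm, Txnrd1, Srxn1, Gsr and Prdx1 have all 3 RANKL libraries below all PBS libraries, while the Gpx4 values of PBS and RANKL overlap.

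Hmox1 (chr8:75093621-75100589, plus strand) encodes heme oxygenase 1, which breaks heme down to biliverdin, iron and carbon monoxide. Its FPKM was 215.5, 262.0 and 263.7 in PBS, 147.3, 128.3 and 107.1 in RANKL, and 259.7, 271.4 and 217.8 with the vitamins. The RANKL libraries lay apart from all others, and the PBS and vitamin ranges overlapped almost wholly. It was lower with RANKL, at a log2 fold change of -1.08 (SE 0.149, adjusted p = 0.00817), a call lost when PBS replicate 3 was left out. The vitamins raised it over RANKL by 1.12 (SE 0.149, adjusted p = 0.00132). Against PBS the vitamin group differed by 0.04 (95% interval -0.30 to 0.37, adjusted p = 0.862), and its mean FPKM was 101.04% of the PBS mean, after 51.6% with RANKL alone.

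The pair that makes the rate-limiting enzyme of glutathione synthesis, the modifier subunit Gclm and the catalytic subunit Gclc, both rose with the vitamins over RANKL, and of the pair Gclm passed the test for a fall with RANKL. Gclm (chr3:122245557-122270732, plus strand) had FPKM values of 97.3, 111.2 and 113.5 in PBS, 46.6, 55.1 and 47.6 in RANKL, and 82.3, 80.5 and 75.3 with the vitamins. The 3 groups did not overlap, and the vitamin libraries lay between the other groups. RANKL gave the largest fall among the 10 genes, -1.24 (SE 0.114, adjusted p = 0.00129), and the call held with any library left out. The vitamins raised Gclm by 0.83 over RANKL (SE 0.113, adjusted p = 0.00143) and it remained lower than in PBS, at -0.41 (SE 0.113, adjusted p = 0.0183), the latter lost when PBS replicate 2, PBS replicate 3 or vitamin replicate 3 was left out. An antisense gene that overlaps Gclm, Gm17494, had mean counts of 1499 in PBS, 3485 in RANKL and 1510 with the vitamins, and whether the counting used the strand is not given in the sources used here.

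Gclc (chr9:77754535-77794485, plus strand) had FPKM values of 17.5, 18.4 and 22.4 in PBS, 11.5, 16.4 and 10.5 in RANKL, and 27.4, 24.8 and 23.6 with the vitamins. The vitamin libraries were the highest 3 of the 9, and RANKL replicate 2 lay close to the lowest PBS library. The change with RANKL was -0.74 (SE 0.174, adjusted p = 0.0527) and missed the threshold; with vitamin replicate 2, a library outside this comparison, left out of the joint fit, it was called at an adjusted p of 0.0256. The vitamins raised Gclc over RANKL by 1.15 (SE 0.176, adjusted p = 0.00221), and against PBS the difference was 0.41 (SE 0.174, adjusted p = 0.0901).

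Gsr (chr8:33652523-33698163, plus strand), glutathione reductase, regenerates reduced glutathione with NADPH. Its FPKM was 72.5, 64.9 and 85.5 in PBS, 40.1, 49.0 and 38.8 in RANKL, and 64.9, 76.0 and 58.5 with the vitamins. RANKL libraries were lowest throughout, and the vitamin range overlapped that of PBS. Gsr was lower with RANKL, at -0.93 (SE 0.136, adjusted p = 0.00952), a call lost without PBS replicate 1, PBS replicate 3 or RANKL replicate 1. With the vitamins it was 0.79 above RANKL (SE 0.136, adjusted p = 0.00358) and differed from PBS by -0.15 (95% interval -0.45 to 0.16, adjusted p = 0.417).

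In the thioredoxin branch, Txnrd1 (chr10:82833951-82897712, plus strand) encodes the cytosolic thioredoxin reductase. It stood at 64.0, 58.3 and 73.4 FPKM in PBS, 33.3, 46.4 and 31.0 in RANKL, and 87.1, 84.8 and 81.6 with the vitamins. The 3 groups did not overlap, and the vitamin libraries were the highest. The fall with RANKL was -0.96 (SE 0.157, adjusted p = 0.0148), lost when PBS replicate 1, PBS replicate 3, RANKL replicate 1 or RANKL replicate 3 was left out. The rise with the vitamins over RANKL was 1.36 (SE 0.158, adjusted p = 0.00083), and the difference from PBS was 0.40 (SE 0.156, adjusted p = 0.0677).

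Srxn1 (chr2:152105516-152109322, plus strand by the deposited coordinates) encodes sulfiredoxin, which restores peroxiredoxins that peroxide has overoxidized. FPKM values were 80.0, 75.1 and 95.04 in PBS, 47.4, 55.6 and 45.2 in RANKL, and 144.1, 109.4 and 123.1 with the vitamins, again without overlap between groups. Srxn1 showed the largest rise with the vitamins among the 10 genes, 1.51 over RANKL (SE 0.173, adjusted p = 0.000773). It was also the one gene of the list called higher than PBS, by 0.62 (SE 0.170, adjusted p = 0.0173), with any library left out. Its fall with RANKL was -0.89 (SE 0.170, adjusted p = 0.0259) and held in only 2 of the 9 fits that left out a library, those without vitamin replicate 1 or 2, with adjusted p up to 0.134 without PBS replicate 3.

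Prdx1 (chr4:116685544-116700822, plus strand), a peroxiredoxin that reduces hydrogen peroxide and is recycled by thioredoxin, had the highest FPKM of the list in every group. It stood at 589.8, 570.0 and 628.1 in PBS, 374.1, 407.9 and 357.7 in RANKL, and 566.0, 640.6 and 534.9 with the vitamins. The RANKL libraries were apart from the other 6, whose ranges overlapped. It was lower with RANKL, at -0.78 (SE 0.101, adjusted p = 0.0063), which held with any library left out. The vitamins raised it by 0.76 over RANKL (SE 0.101, adjusted p = 0.00132), and the difference from PBS was -0.02 (95% interval -0.25 to 0.21, adjusted p = 0.897).

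Gpx4 (chr10:80047166-80056439, plus strand), the selenoenzyme that reduces lipid peroxides in membranes, showed a different pattern. Its FPKM was 84.1, 85.3 and 89.9 in PBS, 87.1, 84.5 and 82.8 in RANKL, and 62.7, 84.6 and 64.7 with the vitamins. PBS and RANKL overlapped, vitamin replicate 2 lay with them, and the other vitamin libraries were lowest. The log2 fold changes were -0.15 for RANKL against PBS (95% interval -0.38 to 0.08, adjusted p = 0.479), -0.13 for the vitamins against RANKL (95% interval -0.36 to 0.10, adjusted p = 0.369) and -0.28 for the vitamins against PBS (adjusted p = 0.0535). Without vitamin replicate 2 the last was -0.35 and passed, at an adjusted p of 0.0072. A processed pseudogene, Gpx4-ps2, had mean FPKM of 39.8, 38.8 and 32.1 in the same order of groups, so reads may be divided between the copies.

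Counted together, 6 of the 10 genes were lower with RANKL than in PBS and none was higher, where 1.26% of all genes tested were called lower, 2.35% higher and 3.61% in either direction. The genes called were Hmox1, Gclm, Txnrd1, Srxn1, Gsr and Prdx1. The median log2 fold change was -0.83 for the 10 and -0.04 for all genes tested, and FPKM ranges lay apart, with RANKL below, for 9 of the 10 against 12.9% of all genes. The count was 2 when PBS replicate 3 was left out, 3 without PBS replicate 1 or RANKL replicate 1, and 8 without vitamin replicate 2, where Nfe2l2 and Gclc were added and 5.23% of all genes were called lower.

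With the vitamins, 8 of the 10 were higher than with RANKL alone and none was lower, where 16.4% of all genes tested were called higher and 17.2% lower. Their median was 0.83 against -0.04 for all genes, and FPKM ranges lay apart, with the vitamins above, for 8 of the 10 against 17.0% of all genes; no gene of the 10 had its ranges apart with the vitamins below, against 29.2% of all genes. Of the 8 calls, 7 held with any library left out, the exception being Nfe2l2, and all 8 held without vitamin replicate 2. Both this comparison and the previous one use the same 3 RANKL libraries, so they are not independent of each other.

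**Figure D2:**
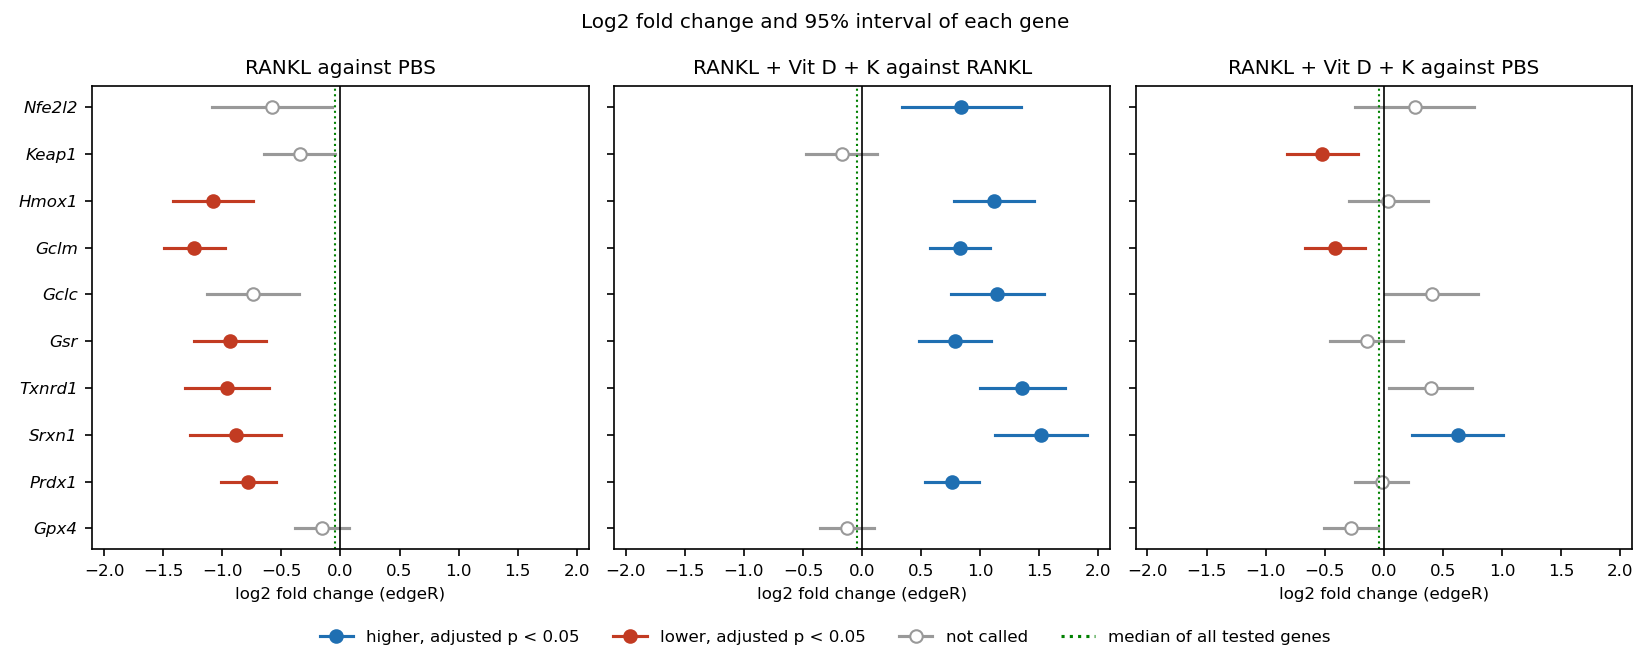
Log2 fold change (horizontal axis) of each of the 10 genes in the 3 comparisons, with 95% intervals; filled points passed an adjusted p of 0.05, and the dotted line is the median of all genes tested. RANKL against PBS lies left of 0 for all 10, the vitamins against RANKL lie right of 0 for all but Keap1 and Gpx4, and the vitamins against PBS scatter around 0.

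The direct comparison of the vitamin group with PBS gave 1 gene higher, Srxn1, and 2 lower, Keap1 and Gclm. Of all genes tested, 19.8% were called higher and 21.0% lower, and 40.8% in either direction, so 3 calls of 10 is no larger a share than that of all genes. The median was 0.01 against -0.04 for all genes. FPKM ranges lay apart with the vitamins above for Gclc, Txnrd1 and Srxn1, against 24.8% of all genes, and with the vitamins below for Keap1 and Gclm, against 27.7%. As a share of the PBS mean FPKM, the vitamin group ran from 69.4% for Keap1 and 73.9% for Gclm to 130.0% for Gclc and 150.5% for Srxn1. With vitamin replicate 2 left out, Nfe2l2 (0.50, adjusted p = 0.0106), Gclc (0.48, adjusted p = 0.0494) and Txnrd1 (0.46, adjusted p = 0.0381) were also higher than PBS and Gpx4 was also lower, which made 4 higher and 3 lower, where 23.3% of all genes tested were then called higher and 26.5% lower.

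In order of FPKM, Prdx1 and Hmox1 led in all 3 groups, and Gclc and Keap1 were lowest in all 3. Prdx1 averaged 596 ± 29.6 (SD, n = 3) in PBS, 380 ± 25.6 in RANKL and 581 ± 54.3 with the vitamins. In PBS the middle of the order was Gclm, Gpx4, Nfe2l2, Srxn1, Gsr and Txnrd1, and from Gpx4 down to Txnrd1 neighbouring ranges overlapped. In RANKL, Gpx4 (84.8 ± 2.16) came after Hmox1 and stood clear of Nfe2l2 (61.6 ± 5.86), and the ranges of Gclm, Srxn1, Gsr and Txnrd1 overlapped in turn. With the vitamins Srxn1 (126 ± 17.5) came after Hmox1, overlapping Nfe2l2 (98.3 ± 24.5), and neighbouring ranges overlapped down to Gsr. Keap1 exceeded no other gene in any group by its mean, although its RANKL range overlapped that of Gclc.

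Ratios between functional partners show where the members moved by unequal amounts. These 4 pairs were chosen after the values were seen and are given as a description. The ratio of Gclm to Gclc in FPKM was 5.56 ± 0.495 in PBS, 3.99 ± 0.596 in RANKL and 3.15 ± 0.124 with the vitamins (SD, n = 3), and the groups did not overlap. The ratio of Nfe2l2 to Keap1 was 6.25 ± 0.483 in PBS and 5.30 ± 0.129 in RANKL, and with the vitamins it was 15.1, 5.92 and 12.5, so that replicate 2 lay within the PBS range. Txnrd1 to Gsr, the reductases for thioredoxin and for glutathione, stood at 0.879 ± 0.0196, 0.858 ± 0.0776 and 1.28 ± 0.148, and Srxn1 to Prdx1, the repair enzyme to a substrate, at 0.140 ± 0.0103, 0.130 ± 0.00565 and 0.219 ± 0.0431. In both of these pairs the PBS and RANKL ranges overlapped and all 3 vitamin libraries were above them.

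**Figure D3:**
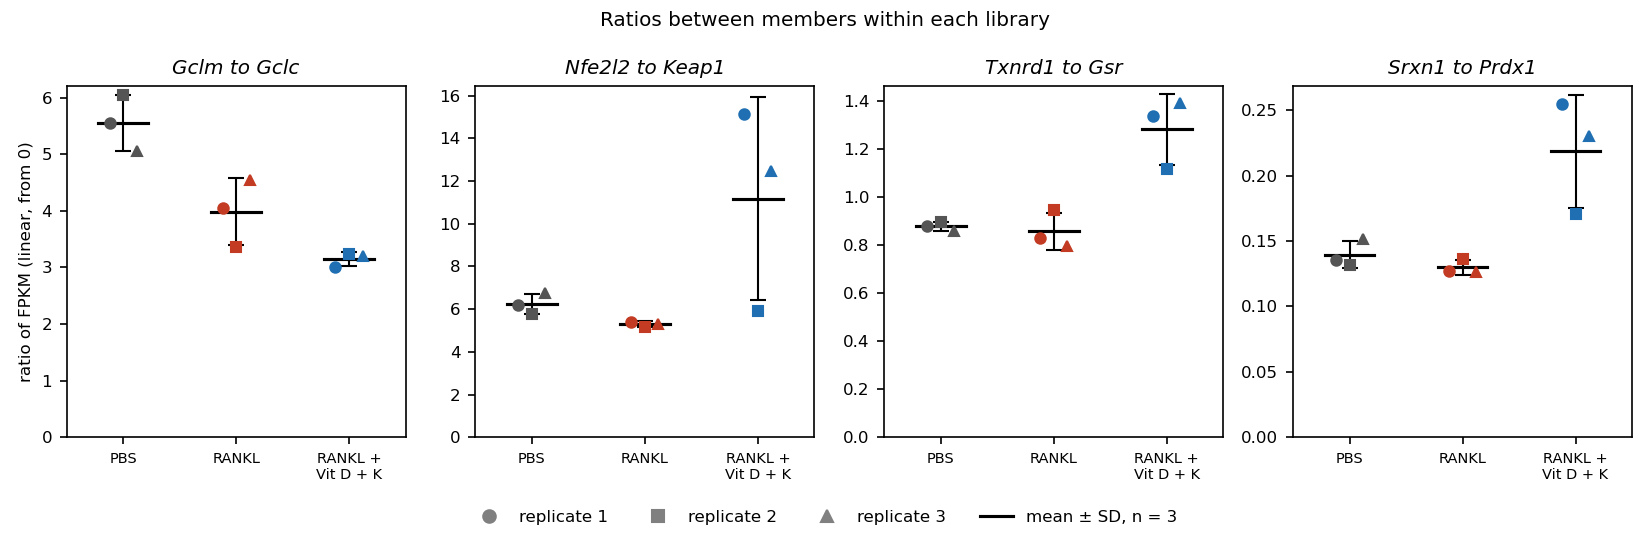
Ratio of FPKM between partners (vertical axes, no unit) in each of the 9 libraries, with the mean of 3 as a bar and the SD as error bars. Gclm to Gclc is highest in PBS and lowest with the vitamins, and the other 3 ratios are highest with the vitamins except for vitamin replicate 2 in Nfe2l2 to Keap1.

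Other genes of the pathway were taken from a list of 87, of which 84 could be tested. With RANKL, 1 was higher than in PBS and 12 were lower, where 2.35% of all genes tested were higher and 1.26% lower, with a median of -0.26. These counts depended on single libraries, with 0 to 5 higher and 3 to 24 lower when 1 was left out (3 without PBS replicate 1, 24 without vitamin replicate 2), and DESeq2 gave 6 and 19. The one that rose was Bach2, a repressor related to Bach1, at low counts of 17 to 42 in PBS and 117 to 301 in RANKL (2.46, adjusted p = 0.0244). With the replicate number as a block, 3 were higher and 14 lower, although the labels state no pairing of libraries by number. In that fit Gpx1 (0.78, adjusted p = 0.0428) and Mgst3 (0.73, adjusted p = 0.0466) were also higher. Slc7a11 (-1.53, adjusted p = 0.00806) and Fth1 (-1.003, adjusted p = 0.0161) were also lower. Among the 12 were Cat, the catalase that breaks down hydrogen peroxide (-1.46, adjusted p = 0.00861), Slc40a1, the iron exporter ferroportin (-2.12, adjusted p = 0.0199), the biliverdin reductase Blvrb and the pentose phosphate enzymes Pgd and Taldo1. The Cat call held with any library left out, whereas Bach2, Pgd and Blvrb each held in 4, Slc40a1 in 3 and Taldo1 in 2 of the 9 fits that left out a library, with the highest adjusted p without PBS replicate 1 for Blvrb (0.104) and without PBS replicate 3 for the others (up to 0.198). None of the 14 further thioredoxin and peroxiredoxin genes passed in this comparison.

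With the vitamins against RANKL, 23 of the 84 were higher, 27 lower and 34 not called, with a median of -0.16, so that calls in the larger list lay in both directions, where 16.4% of all genes tested were higher and 17.2% lower. Leaving out 1 library gave 15 to 26 higher and 14 to 35 lower, the lowest without RANKL replicate 1 and the highest without vitamin replicate 2. Of the 23 and 27 calls, 15 and 14 held with any library left out. Regulators of the pathway included 8 higher and none lower of 13. Of the 8, 5 held with any library left out, all but Maff, Cul3 and Rbx1. The 13 mix genes that favour NRF2 with genes that oppose it, so the count gives no direction for its activity. Beside the genes described next, Mafg, Nfe2l1 and Gsk3b (1.01, adjusted p = 0.00756) were among the 5. Sqstm1, which encodes p62, an autophagy receptor that binds KEAP1, rose from 160, 174 and 142 FPKM in RANKL to 1288, 502 and 1008 with the vitamins (log2 fold change 2.74, adjusted p = 0.000956). Mafk, a small MAF partner of NRF2, went from 4.50, 5.12 and 6.05 to 36.1, 8.29 and 26.1 (2.36, adjusted p = 0.00617). In both genes vitamin replicate 2 was the lowest of its group. Bach1, the repressor that competes with NRF2 for its sites, was not called (-0.14, adjusted p = 0.518).

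The glutathione list divided, with 7 higher and 6 lower of 21, against 16.4% and 17.2% of all genes tested, of which 5 and 3 held with any library left out. Slc7a11, the cystine importer that feeds glutathione synthesis, had 3.29, 2.28 and 4.81 FPKM in RANKL and 80.95, 43.5 and 80.5 with the vitamins (4.46, adjusted p = 0.000501). Chac1, which degrades glutathione, also rose (3.98, adjusted p = 0.00622), and its 3 vitamin values of 5.69, 35.5 and 6.26 were led by replicate 2, without which the change was 2.73. The 6 lower genes were the glutathione peroxidases Gpx1 and Gpx3 and the transferases Gstp1, Gstt1, Mgst1 and Mgst2, of which Gpx1, Gstt1 and Mgst2 did not hold throughout. Of the thioredoxin and peroxiredoxin list, 4 were higher and 6 lower of 14, against the same 16.4% and 17.2%, and 2 and 3 of these held with any library left out. Txnip, the inhibitor of thioredoxin, went from 126, 118 and 112 FPKM to 2.88, 14.6 and 4.74 (-3.92, adjusted p = 0.000937, and -4.75 without vitamin replicate 2), and Sesn1, a sestrin, fell from 31.8, 30.1 and 28.7 to 2.61, 5.05 and 1.83 (-3.14, adjusted p = 0.00039).

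Among NADPH and quinone genes 1 was higher and 6 lower of 15, where 16.4% of all genes tested were higher and 17.2% lower. The higher one was Me1, malic enzyme, which held in 5 of the 9 fits that left out a library. Of the 6 lower, 3 held in all 9, and Nqo2, Cbr1 and G6pdx, the entry enzyme of the pentose phosphate pathway, held in 4, 3 and 1, with adjusted p for G6pdx up to 0.159 without vitamin replicate 3. Idh1, a producer of NADPH, held throughout, at 253, 173 and 271 FPKM in RANKL and 23.2, 67.4 and 34.4 with the vitamins (-2.38, adjusted p = 0.00136). Ephx1, an epoxide hydrolase, was also lower (-1.63, adjusted p = 0.00388). Nqo1, a widely used NRF2 target singled out after its values were seen, averaged 15.3, 14.3 and 18.1 FPKM in PBS, RANKL and the vitamin group, and its change over RANKL was 0.48 (adjusted p = 0.0533), past the threshold in 2 of the 9 fits that left out a library. Heme and iron genes had 3 higher (16.4% of all genes) and 2 lower (17.2%) of 9, all holding with any library left out except Blvra, which was lower. Fth1, the ferritin heavy chain, went from 1466, 1143 and 1588 FPKM to 4826, 2556 and 4058 (1.61, adjusted p = 0.00425), beside Ftl1, the light chain, and Slc40a1 (1.57, adjusted p = 0.0122). The cytosolic and mitochondrial superoxide dismutases Sod1 (-0.39, adjusted p = 0.00971) and Sod2 (-1.12, adjusted p = 0.00629) were lower, and Cat was not called (0.57, adjusted p = 0.0583), but was called without vitamin replicate 2 (0.77, adjusted p = 0.00255). Of 8 genes of the NADPH oxidase, a source of superoxide in macrophages, 5 were lower, against 17.2% of all genes, and none was higher, and 2 of the 5 held with any library left out. Cybb, its catalytic subunit, was among those that held (-1.42, adjusted p = 0.00771). Ncf4 and Rac1 each held in 1 of the 9 fits, with adjusted p up to 0.144 and 0.183 without vitamin replicate 3. Rac2, a GTPase that activates the oxidase (-0.74, adjusted p = 0.0119), held in 7, with adjusted p up to 0.0562 without the same library. Summed macrophage markers fell in the same libraries, as given above, and their part in these changes was not tested.

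The most abundant genes of these lists that were not called with the vitamins against RANKL included Txn1, thioredoxin itself, at -0.12 (95% interval -0.45 to 0.20), and Prdx3, the mitochondrial peroxiredoxin, at -0.22 (-0.50 to 0.06). Without vitamin replicate 2, however, 11 of the 34 genes not called passed the test, where calls over all genes tested also rose, from 16.4% to 21.2% higher and from 17.2% to 25.2% lower. Among the 11 were Prdx3 (-0.33, adjusted p = 0.0281), Slc48a1 (-0.53, adjusted p = 0.00132), Gsto1 (0.85, adjusted p = 0.00034), Dpp3 (-0.60, adjusted p = 0.000652) and Blvrb (0.35, adjusted p = 0.0297). Cyba, the partner subunit of Cybb, was at 0.02 (-0.22 to 0.25) and Ncf1 at -0.42 (-0.80 to -0.03), both over the adjusted threshold. Taldo1 was at 0.09 (-0.14 to 0.31) and Akr1a1 at 0.07 (-0.19 to 0.33). Blvrb (0.30), Slc48a1, a heme transporter (-0.37), Gsto1 (0.57), Mgst3 (-0.16) and Dpp3 (-0.39) had adjusted p-values of 0.0662 to 0.740. Sod3, the other gene of its short list that was not called, was barely detected, with 0 to 21 counts per library, and its fold change is not interpreted.

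**Figure D4:**
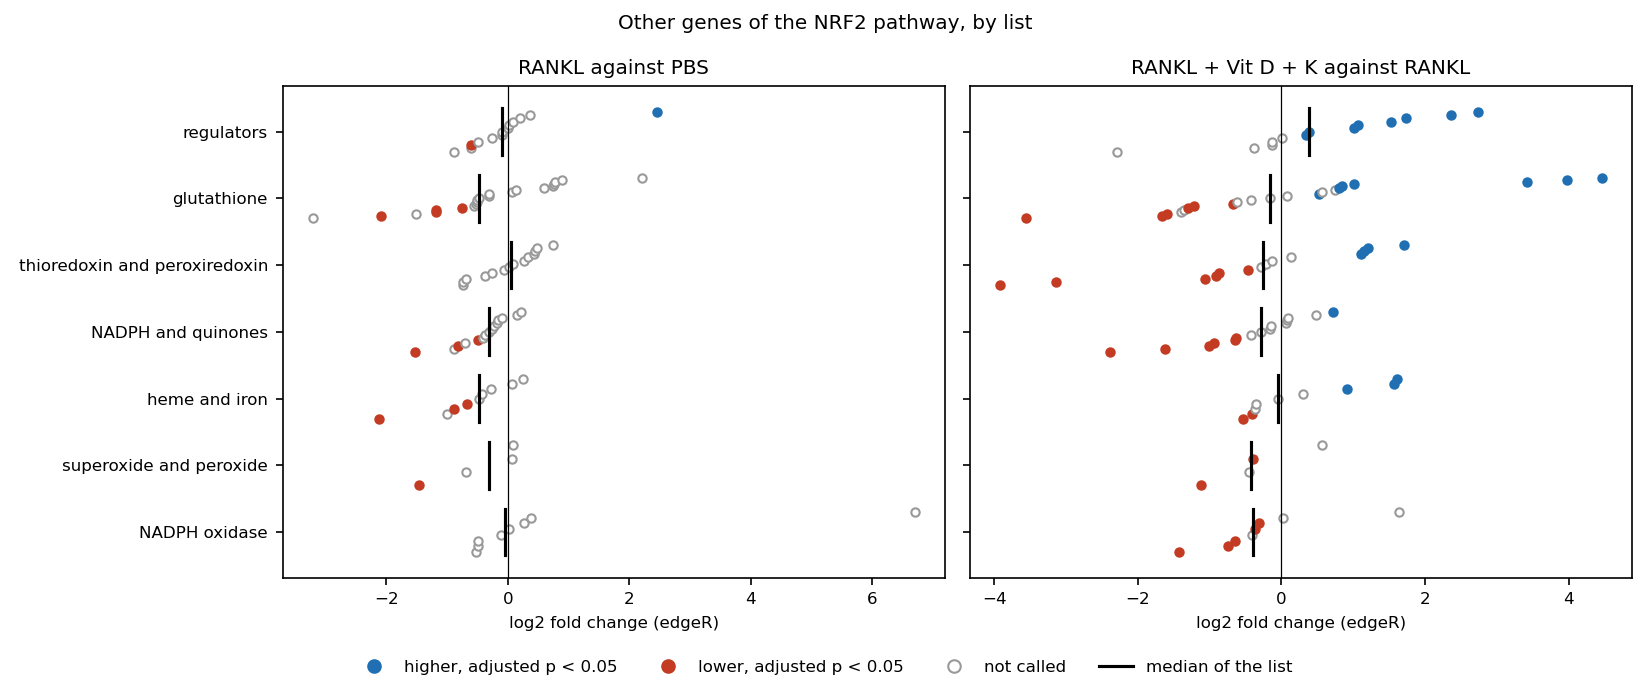
Log2 fold changes (horizontal axes) of the 84 other pathway genes in 7 lists, for RANKL against PBS at left and the vitamins against RANKL at right; points are genes, filled where an adjusted p of 0.05 was passed, and black bars are medians. Calls with RANKL are few and mostly lower, calls with the vitamins lie on both sides of 0, and the point farthest right at left is Nox1, listed at 0 in every PBS library, whose fitted value is no measure of size.

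The genes whose levels followed Nfe2l2 most closely over the 9 libraries, by Pearson's r of log2 CPM (counts scaled to library size) among the 17002 genes, were Gyg (0.994), Zzz3 (0.992), H2-Q4 (0.988), Zfp236 (0.987) and Ube2q2 (0.986). For Hmox1 they were Ralgps1 (0.975), Prdx1 (0.968), Gm21399 (0.962), Gm14252 (0.955) and Rhod (0.952), and Gsr was the tenth (0.923). Gm14252 was barely detected, with mean FPKM of 0.0796 in PBS, 0.00781 in RANKL and 0.0574 with the vitamins. The member of the list nearest to Nfe2l2 was Srxn1, at rank 792 (0.873), and Hmox1 was at rank 1949 (0.750). The libraries fall into 3 treatment groups, and such correlations describe these 9 libraries only.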

How the data were processed

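Poly(A)-selected RNA of 9 libraries was sequenced as paired ends on an Illumina NovaSeq, from pooled RNA by the study's methods. The submitters' processing notes name cutadapt 1.9, HISAT2 2.0.4, StringTie 1.3.4d and edgeR; they name hg38 as the build, but the gene IDs are mouse, and 28294 of 28379 were found in the GENCODE annotation of GRCm38, 24678 with identical coordinates. The authors deposited 1 table with whole-number counts per gene, not normalized, and FPKM values, scaled by the authors for transcript length and library size. The notes and methods do not state how reads shared between similar or overlapping genes were counted.

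Counts were fitted here in R 4.3.3 with edgeR 4.0.16 (filterByExpr, TMM, quasi-likelihood test, all 9 libraries in 1 model without a replicate term); p-values were adjusted by Benjamini-Hochberg over 17002 genes, with a threshold of 0.05. A standard error is the size of the log2 fold change divided by the square root of F, and a 95% interval uses the test's degrees of freedom. Means ± SD are of FPKM over 3 libraries. The depth behind each value was 65915112 to 68229647 counts per library, and intervals from the fit cover the spread between libraries. The FPKM columns were used for levels, and with limma 3.58.1 as alternatives on log2(FPKM + 1) and log2(FPKM + 0.1); DESeq2 1.42.0, other scaling, other filters, a replicate block, fits of 2 groups and fits without 1 library were also tried. The scripts were tested on simulated data. No per-sample column was left unused.

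Neither the labels nor the methods pair the libraries by replicate number. The correlations of deviations from the group means for same-numbered libraries were 0.122, 0.219 and 0.155 between PBS and RANKL. With the vitamin group they were -0.0216 to 0.107. Differently numbered libraries were not compared, so whether the numbers pair any groups was not settled. The 10 genes, the lists of pathway genes and the cell markers were chosen with earlier results of these data known. Every one of the 10 was named; of each pathway list, values are given for the 2 called genes with the largest change with the vitamins against RANKL and up to 2 of the highest mean FPKM that were not called. Genes named beside these, and the values with RANKL against PBS for pathway genes, were chosen after their values were seen.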

Additional observations from a re-analysis of the deposited data

How the results depend on the processing

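Of the 10 genes, none changed direction in RANKL against PBS or in the vitamins against RANKL under any of the 17 alternatives. Counts over all genes depended more on the setting. For RANKL against PBS, 400 genes were higher and 214 lower, against 1056 and 643 by DESeq2 and 1034 and 702 with only those groups fitted; 122 were lower without a filter on low counts, and 605 were higher by limma on log2(FPKM + 0.1). Other pathway genes, 1 higher and 12 lower, became 6 and 19 by DESeq2 and 8 and 21 with only those groups, and 2 were higher with CPM above 1 in 3 libraries. With the replicate block, 538 genes were higher and 287 lower and 3 other pathway genes were higher. The block changed no call among the 10 in any comparison. With the block, Maff, Cul3, Rbx1 and Ncf4 lost their calls for the vitamins against RANKL. Cat (0.54, adjusted p = 0.0162), Nqo1 (0.48, adjusted p = 0.0255), Glrx, Akr1b3 and Blvrb gained one. For the vitamins against RANKL, 1912 genes were lower with only those groups fitted, against 2929. By DESeq2, 2 of the 10 were higher with the vitamins than in PBS. The small Prdx1 difference there turned to 0.00329 without a filter and 0.00528 with CPM above 1. The cause was not tested.

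Leaving out 1 library gave, for RANKL against PBS, 96 to 972 genes higher and 30 to 931 lower, 2 to 8 of the 10 lower, and 0 to 5 higher and 3 to 24 lower other pathway genes. For the vitamins against RANKL it gave 1578 to 3773 genes higher and 1621 to 4486 lower, and 15 to 26 higher and 14 to 35 lower other pathway genes. For the vitamins against PBS it gave 2297 to 4725 genes lower, 1 to 4 of the 10 higher and 0 to 3 lower; log2 fold changes ran from -0.0213 to 0.0818 for Prdx1, -0.00214 to 0.162 for Hmox1 and -0.20 to 0.029 for Gsr. Of genes called with the vitamins against RANKL, 48.8% were higher, against 36.8% and 35.6% by limma with pseudocounts of 1 and 0.1, where the median of all genes moved from -0.04 to -0.16 with the latter and the median of the 10 was 0.65 and 0.66; for RANKL against PBS the median of all genes moved from -0.04 to 0.07 with the latter. A level below 3 counts, 4.55e-06% of the smallest library, could not be told from 0.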
